A study of Arabidopsis thaliana with 4 samples.

Results

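The VND and NST genes of Arabidopsis thaliana encode the NAC transcription factors that switch on secondary wall formation. The group was taken by name: VND1 to VND7, NST1, NST2 and SND1, 10 genes among the 27444 nuclear protein-coding genes of the reference table. In DAP-seq, short for DNA affinity purification sequencing, a purified factor picks its binding sites out of naked genomic DNA, and here the factor was MYB67, a plant MYB protein of the R2R3 class. MYB67 was fused to a Halo tag, made in wheat germ extract, held on beads and mixed with sheared Col-0 DNA; the 2 MYB67 libraries stood against 2 empty-vector libraries, in which the extract made the Halo tag alone. The tissue label of all 4 libraries reads root, whereas the protocol states leaf as the source of the DNA. All used the same wild-type accession, and the assay takes place on DNA without chromatin and measures no gene expression.

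NAC factors of the VND type direct the differentiation of xylem vessel cells, which deposit a patterned lignified wall and then die. VND6 and VND7 are best known for metaxylem and protoxylem vessels, and VND1 to VND5 are their close relatives in the same programme. NST1 and SND1 (also called NST3) act together in fibres, and NST1 and NST2 act in the wall thickening that opens anthers. Below these factors stands a layer of MYB and other regulators, headed by MYB46 and MYB83, and below that the enzymes of cellulose, xylan and lignin and the proteases and nucleases of vessel cell death. MYB67 was tested here as a DNA-binding protein; its peaks say where it bound in a tube and not which genes it controls.

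A peak is a region with more MYB67 reads than the background modelled by the peak caller, and its fold enrichment is the ratio of signal to that background. The deposited files hold 1 list of 5390 peaks, each with its fold, its −log10 q and at most 1 gene assigned by the authors. No value belongs to a single library, so read depth is unknown, no replicate error can be given, and no test across libraries exists for any gene. No source used here states how peaks were joined to genes. The authors' motif has 10 positions, and its most frequent base at each reads tccAcCtAcc, where capitals mark the 3 positions at which 1 base reached at least 95%. The sites counted below are matches to this motif and not to that 1 word, since some positions vary. Position 3, for example, was C at 50.2% and T at 47.8%.

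MYB67 peaks were assigned to VND4 and VND5 and to no other gene of the group. That is 2 of 10 genes (20%, 95% Wilson interval 5.67 to 51.0%, counting error only), against 14.7% of all nuclear protein-coding genes, so the share of the group lay near the background. Both bound genes are VND genes: 2 of the 7 VND genes had a peak, against 0 of the 3 NST-type genes. Beside a background of 14.7%, 3 genes without a peak are unremarkable. A difference between the 2 types was not tested. VND1 (AT2G18060), VND2 (AT4G36160), VND3 (AT5G66300), VND6 (AT5G62380), VND7 (AT1G71930), NST1 (AT2G46770), NST2 (AT3G61910) and SND1 (AT1G32770) had no assigned peak. Both bound genes stayed in when the weaker peaks were set aside: the count was 2 of 10 among the upper 50% of peaks by fold, against 7.81% of all genes, and 2 of 10 at a −log10 q of 10 or more, against 6.07%. It was also 2 of 10, against 14.2%, among peaks that hold a motif site at the deposited threshold. With a site threshold of 0.01 on q it was 0 of 10, against 7.63%. The number of genes bound was thus unremarkable, while the VND4 peak was among the strongest of the list, as the bar chart of gene groups and the plot of peak strength show side by side.

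**Figure D1:**
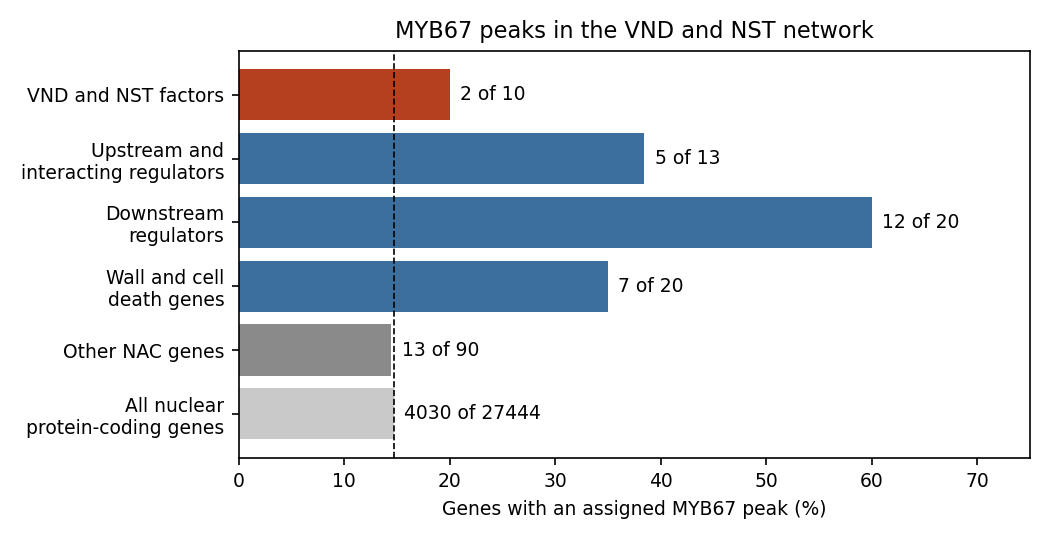
Percentage of genes with an assigned MYB67 peak in the 10 VND and NST factors, in 3 lists of genes around them, in the other NAC genes and in all nuclear protein-coding genes, with counts beside the bars. The dashed line is the 14.7% of all genes; the VND and NST factors lie near it at 20% and the downstream regulators reach 60%.

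VND4 (AT1G12260, also named NAC007) carried one of the strongest peaks of the whole list. The peak covered chromosome 1, 4167659 to 4168019 (TAIR10), with its summit at 4167839, a width of 361 bp, a fold of 17.3 and a −log10 q of 81.8. Its fold ranked ninth, with 8 genes above it among the 4030 nuclear genes with a peak, and was 3.86 times the median of 4.47 over those genes. By −log10 q it ranked at position 14. Strong peaks tend to be wide in this list, but the 200 peaks nearest to it in width (348 to 374 bp) had a median fold of 6.17 and none reached its value.

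VND5 (AT1G62700, also named ANAC026) carried a weaker peak. It covered chromosome 1, 23220900 to 23221187 (TAIR10), with its summit at 23221030, a width of 288 bp, a fold of 7.07 and a −log10 q of 18.7. The fold of the VND4 peak was 2.44 times that of the VND5 peak, a ratio of single values without error. The VND5 fold was above those of 87.1% of genes with a peak, and 18 genes had exactly this fold, so their order is not resolved. Among the 200 peaks of like width (284 to 292 bp) the median was 5.30, and 83.5% lay below VND5.

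The genes next to VND4 by fold were C4H, the second enzyme of the phenylpropanoid pathway, at 18.2 and IQD22, a calmodulin-binding protein gene, at 17.7 above it. AT5G62210 at 17.0 and AT5G43690 at 16.5 followed below it. The nearest to VND5 in the ordered list all shared its fold of 7.07 and its −log10 q of 18.7: AT1G44970, AT1G49225, CLV1 (AT1G75820), a receptor kinase of the shoot meristem, and SEC5A (AT1G76850), an exocyst subunit. Likeness here means closeness in the fold of the strongest peak alone. Ties were ordered by locus number, so the genes listed for VND5 are no nearer to it than the others among the 18 genes with this fold.

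**Figure D2:**
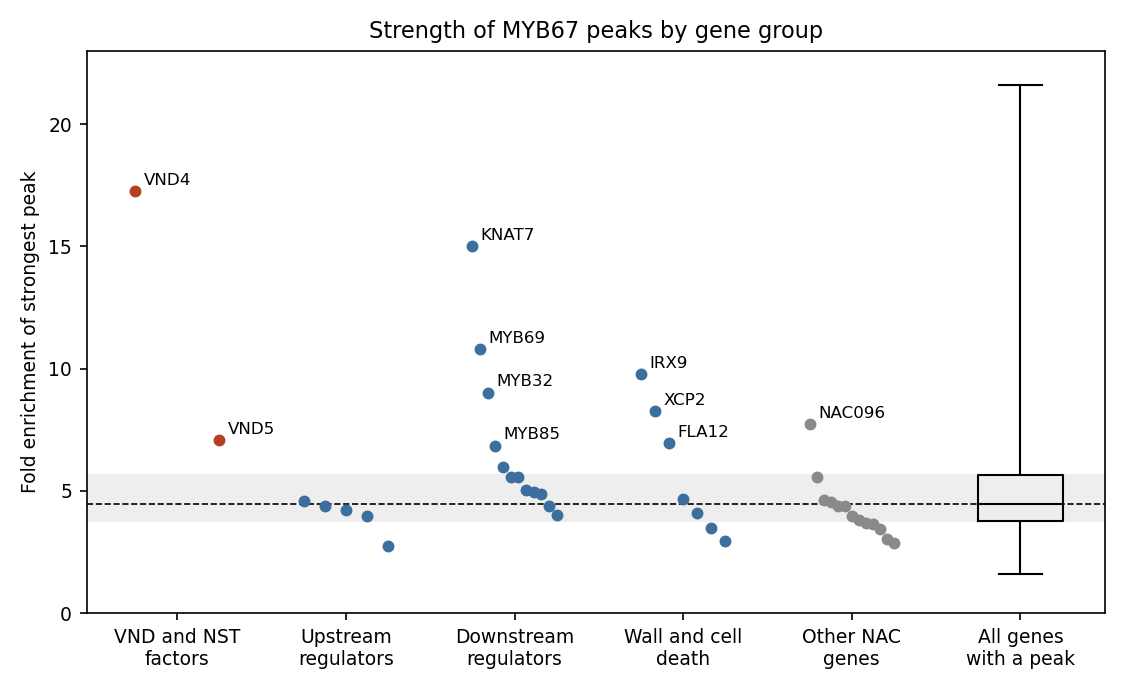
Fold enrichment of the strongest peak of each gene with a peak, by gene group, with genes of a fold of at least 6.5 named. The grey band and dashed line give the quartiles and median of all 4030 genes with a peak, whose box at the right has whiskers to the lowest and highest value; VND4 at 17.3 is the highest point of the groups shown and VND5 stands at 7.07.

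Both peaks held several weak matches to the motif and no strong one. FIMO, a motif scanner, listed matches up to a q of 0.05, and the deposited coordinates are those of the peak, so a match could be counted but not placed. The VND4 peak held 6 matches, with q-values of 0.0205, 0.0211, 0.0409, 0.0428, 0.0437 and 0.0467. The VND5 peak held 4, with q-values of 0.0172, 0.0447 and 0.0467. The last stood on 2 entries of equal q, which may be 1 site or 2. The median peak held 2 matches, and 97.5% of all peaks held fewer than VND4 and 84.8% fewer than VND5, repeated entries included. With its repeat counted once VND5 held 3, which equals the upper quartile over all peaks with repeats left in. Per length, with repeated entries included, the values were 1.66 matches per 100 bp at VND4 and 1.39 at VND5, against a median of 0.823 over all peaks.

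At a q of up to 0.01 neither VND4 nor VND5 had a match, whereas 47.3% of all peaks had at least 1. Of the peaks with any match, 80.5% had a best match at or below the q of the best one in VND4, and 73.8% at or below that in VND5. VND4 differed in this from most strong peaks: of the 16 genes with a fold of at least 15, a line drawn after the values were seen, 12 had a match at a q of up to 0.01. The best match of VND4, at 0.0205, was the weakest of these 16, the next being 0.0145. The 4 of these 16 without a match at a q of up to 0.01 included VND4. All 4 were among the 9 genes at or above the fold of VND4, which was not alone in this at its strength. The motif was found in these same peaks, so match counts are no independent measure of binding.

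**Figure D3:**
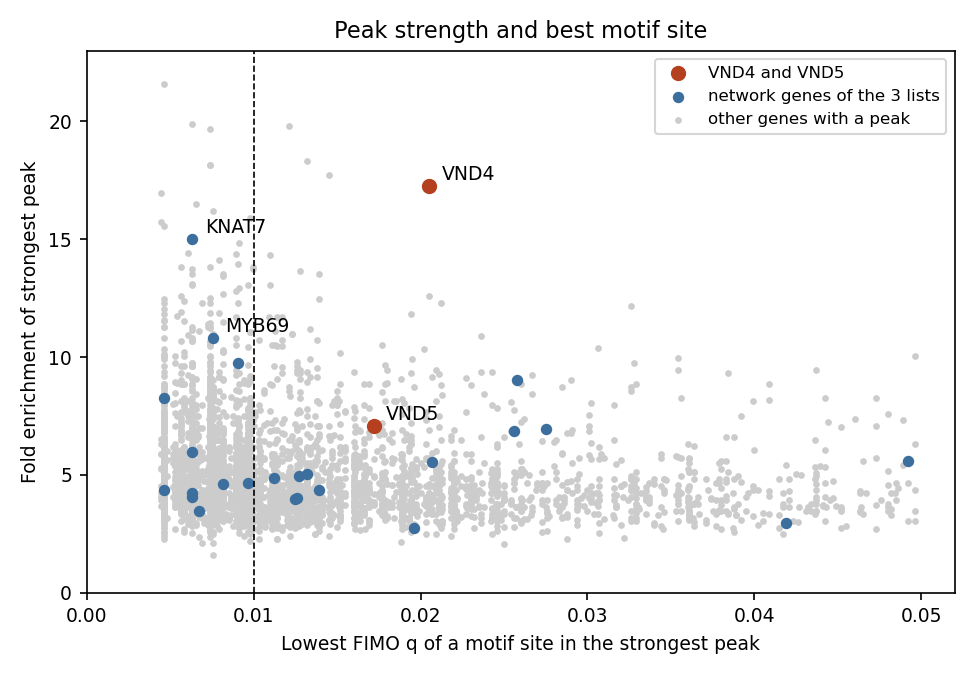
Fold enrichment of each gene's strongest peak against the lowest FIMO q of a motif match in that peak, for genes whose strongest peak holds a match. The dashed line marks a q of 0.01; VND4 (0.0205) and VND5 (0.0172) lie to its right, and VND4 is the rightmost point above a fold of 15.

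Each of the bound genes had a second, weaker peak close by to which no gene was assigned. Beside VND4 it covered chromosome 1, 4168442 to 4168740, began 422 bp beyond the end of the first and had its summit 786 bp from the other summit, with a fold of 4.42 and a −log10 q of 8.01. Beside VND5 it covered chromosome 1, 23221518 to 23221747, after a gap of 330 bp and with 554 bp between the summits, with a fold of 4.23 and a −log10 q of 6.85. The companion peaks held 1 match each, at a q of 0.00539 beside VND4 and 0.00739 beside VND5. The assigned peaks of VND4 and VND5 held no match at a q of up to 0.01. Of all peaks, 47.3% held at least 1 such match, so its presence in the companions is unremarkable.

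Of the 4431 peaks assigned to nuclear genes, 9 (0.203%) had an unassigned peak within 500 bp, a distance chosen after these loci had been seen, and the peaks of VND4 and VND5 are among the 9. A peak of any kind within 500 bp was found for 261 (5.89%). Whether a peak counts as unassigned depends on the authors' unstated rule for joining peaks to genes, so the 0.203% describes that assignment as well as the spacing of peaks, and their parts in it were not tested. On the side of lower coordinates the next peaks were far away, 15268 bp from the VND4 peak and 29372 bp from the VND5 peak, and belonged to ATBETAFRUCT4 (AT1G12240), an invertase gene, and KAS III (AT1G62640), a gene of fatty acid synthesis. The neighbouring genes of VND4, AT1G12250 and Hop1, had no assigned peak, nor did those of VND5, AT1G62690 and BETA-VPE, which encodes a vacuolar protease.

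**Figure D4:**
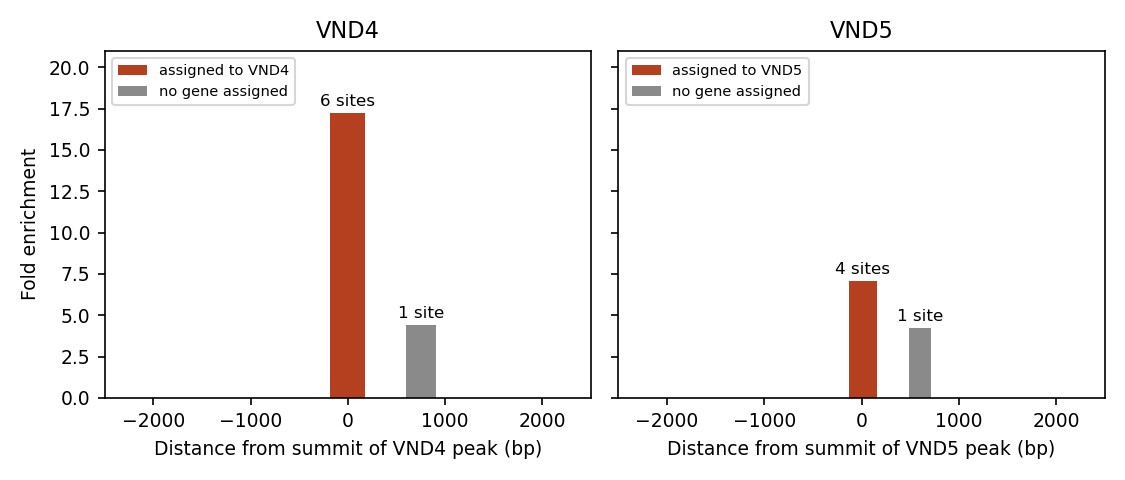
MYB67 peaks within 2500 bp of the summit of the VND4 peak (left) and of the VND5 peak (right), drawn at their width with fold enrichment as height and the number of motif matches above. In both panels a weaker peak with no assigned gene, at a fold of 4.42 beside VND4 and 4.23 beside VND5, lies on the side of higher coordinates.

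For the other 8 genes, the stretch between the flanking assigned peaks was searched for peaks with no gene; it holds no assigned peak by construction, and its length has no background here. In gene order, VND2 stood between peaks assigned to AT4G36150 and AT4G36210 that were 26.3 kb apart with no peak between them. VND3 stood in a peak-free stretch of 23.5 kb, VND6 in one of 30.6 kb and NST1 in one of 33.9 kb. These 4 genes therefore had no unassigned peak in their stretch either. For VND1, VND7, NST2 and SND1 the stretch between the flanking assigned peaks was longer and did hold unassigned peaks. The flanking assigned peaks were 57.7 kb apart around VND4 and 65.9 kb apart around VND5, each with 2 peaks between them, the gene's own and its companion.

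That stretch was 145 kb with 2 unassigned peaks around VND1, the stronger at a fold of 7.67, and 114 kb with 1 peak at 4.68 around VND7. It was 102 kb with 1 peak at 7.76 around NST2 and 59.4 kb with 1 peak at 3.56 around SND1. Only the order of genes was used, so where in the stretch these peaks lay relative to the genes was not determined. Nor was the place of the VND4 and VND5 peaks relative to their own genes. Of the 20 genes that directly neighbour the group, 2 had a peak, AT4G36150 next to VND2 at a fold of 4.23 and AT5G66310 next to VND3 at 2.98.

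Regulators that act on VND and NST genes or bind their proteins had a peak in 5 of 13 cases (38.5%, against 14.7% of all genes). At a −log10 q of 10 or more the count was 0 of 13, against 6.07% of all genes, and among the upper 50% of peaks by fold it was 2 of 13, namely REV and HB8, against 7.81%. The class III homeodomain genes of vascular patterning REV, HB8 and PHB had folds of 4.61, 4.38 and 4.23. NAC075, which promotes VND7 expression, had 3 peaks with folds of 3.69, 3.86 and 3.99, the second without a motif match. LBD15, a LOB-domain gene of the vessel programme, had 2.73. None of these reached the upper quartile of genes with a peak, 5.66, which both VND4 and VND5 exceeded. PHV, GATA12, LBD18, LBD30, E2FC, WRKY12 and the NAC partners or repressors VNI2 and XND1 had no assigned peak.

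The regulators below the VND and NST factors had a peak in 12 of 20 cases (60%, against 14.7% of all genes), with a median fold of 5.57 for the strongest peak, against 4.47 over all genes with a peak. MYB46 and MYB83, the direct targets that head this layer, had no assigned peak. KNAT7 (AT1G62990), a homeodomain regulator of wall deposition, had 3 peaks, the strongest at chromosome 1, 23338196 to 23338667, with a fold of 15.01, a −log10 q of 66.5 and 3 matches. MYB69 (AT4G33450), a wall-associated MYB factor, had 2 peaks with folds of 6.90 and 10.8. KNAT7 was thus the gene of this layer nearest to VND4 in fold, and it differed in holding a match at a q of 0.00632.

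MYB32, MYB7 and MYB4, related repressors of phenylpropanoid genes, had folds of 9.02, 4.95 and 4.38. The lignin regulators MYB85 and MYB63 each had 2 peaks, at 4.95 and 6.85 for MYB85 and at 3.55 and 5.97 for MYB63. MYB43 and MYB42, relatives of MYB85, had 5.57 and 4.01. Both peaks of SND3, a NAC factor of fibre walls, lay at 5.57 and 4.23, and those of MYB52 at 4.14 and 5.03. C3H14, a zinc finger activator of wall genes, had 4.89. More than 1 peak was assigned to 6 of the 12 (50%), against 365 of the 4030 genes with a peak (9.06%), while VND4 and VND5 had 1 assigned peak each. MYB103, MYB58, MYB20, MYB54, SND2 and BLH6 had none.

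Wall and cell death genes at the end of the programme had a peak in 7 of 20 cases (35%, against 14.7%), with a median fold of 4.68. IRX9, a gene of xylan backbone synthesis, had 2 peaks at 9.77 and 3.78, and the vessel protease gene XCP2 had 1 at 8.25. FLA12, an arabinogalactan protein gene of fibres and vessels, had 6.97. GAUT12, also called IRX8 and needed for normal xylan, had 4.68, the cellulose synthase gene CESA8 4.08, and the xylan genes FRA8 and IRX10 3.48 and 2.95. The other cellulose synthases of secondary walls, CESA4 and CESA7, had no assigned peak, nor did IRX14, PARVUS, COBL4, CTL2, FLA11, LAC4, LAC17, XCP1, MC9, BFN1 and RNS3. In these lists, as in the group itself, the share of genes is a description, since the lists were drawn up with earlier results known and genes are no replicates.

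NAC genes were taken by name, as the 100 genes whose symbol or synonym is NAC or ANAC with a number. Among these, VND4 had the highest fold and VND5 the third highest of 15 with a peak. Outside the group, 13 of 90 NAC genes had a peak (14.4%, against 14.7% of all genes), with a median fold of 3.99. NAC096 (AT5G46590), a factor of the abscisic acid response, came between them at 7.73, and SND3 followed at 5.57. Then came NAC048 at 4.62, NAC038 at 4.56, NAC049 at 4.396, NAC003 at 4.37 and NAC075 at 3.99. NAC090 had 3.79, NAC088 3.69, NAC071, a factor of tissue reunion after wounding, 3.63, and NAC6 (AT5G39610, also called ORE1), a regulator of leaf senescence, 3.46. NAC050 at 3.03 and SOG1, the DNA damage regulator, at 2.88 closed the list. SMB, BRN1 and BRN2, root cap factors that are the nearest relatives of the VND and NST proteins, had no assigned peak. NAC075 and SND3 also stand in the lists above.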

How the data were processed

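Genes were chosen, and lists drawn up, with earlier results of these data known. Per the submitters' processing notes, the build was TAIR10 and the tools were MACS3 3.0.0a7, HOMER and bedtools, with STAR 2.7.10a, Picard 2.27.1, Trimmomatic 0.39 and FastQC; their order and settings, and how libraries were combined, are not given in the sources used here. The deposited peak list gives a score, a fold enrichment (ratio) and a −log10 q per peak, and the authors' deposited gene table gives the peak q-value and the gene. The deposited FIMO list gives a q-value per match (12446 entries, 311 of them repeating the peak and q-value of an earlier entry). The deposited motif gives the fraction of each base.

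Values were joined by peak with Python 3.11.15 and pandas 2.3.3, and counting and ranking steps were tested on simulated data. Genes were named, and ordered along chromosomes, by locus through RefSeq's TAIR10.1 table, in which all 10 genes matched. A gene's value is its strongest peak; Wilson intervals (scipy 1.17.1) cover counting error only. The text names all 10 genes, list and NAC genes with a peak, those next in fold and neighbouring genes. No test was run, as no file has a value per library. Promoter and protein sequences were not used here. Alternatives counted only the upper 50% of peaks by fold, those whose −log10 q was 10 or more, or those with a FIMO site.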

Additional observations from a re-analysis of the deposited data

How the results depend on the processing

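VND4 and VND5 remained the bound genes of the group with the upper 50% of peaks by fold, with a −log10 q of at least 10 and with a FIMO site at the deposited q. With a site at a q of up to 0.01 the count was 0 of 10, against 7.63% of all genes, as VND4 and VND5 then have 0 sites each. That setting left 2 of 13 upstream and 6 of 20 downstream regulators. It also left 5 of 20 wall and cell death genes and 6 of 90 other NAC genes. The upper 50% by fold left 2 of 13 upstream and 11 of 20 downstream regulators, against 7.81% of all genes. It left 4 of 20 wall and cell death genes and 5 of 90 other NAC genes. A −log10 q of at least 10 left 0 of 13 upstream and 11 of 20 downstream regulators, against 6.07% of all genes. It left 3 of 20 wall and cell death genes and 3 of 90 other NAC genes. By −log10 q, VND5 lay above 83.55% of genes with a peak, and among peaks of like width its fold lay above 83.5%. By fold, VND4 lay above 100% of peaks of like width. Per 100 bp, sites came to 1.66 in VND4 and 1.39 in VND5, the repeated entry of VND5 included. Promoter words, the motif matrix scan and protein identity were not run, because no sequence table was used. No paired analysis was possible because the columns carry no replicate.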
